A study of Ovis aries with 115 samples.

Results

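The gene PTGS1 encodes cyclooxygenase 1, also called prostaglandin G/H synthase 1, and was followed here as 1 gene (ENSOARG00000014116) of the 27054 gene identifiers that were counted in the sheep cervix. It was picked by its identifier, for its place in prostaglandin synthesis in the cervix, and it was 1 of 14811 genes that passed the filter on low counts. To pass, a gene needed 1 or more CPM in 10 or more of the 39 ewes at the synchronised follicular phase, where CPM is a gene's reads scaled to a common library total. The libraries came from the mid-cervix of adult multiparous ewes of 4 breeds, sampled after slaughter, and each library was taken as 1 ewe.

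The Suffolk and Belclare ewes were kept in Ireland, and the Fur ewes and the Norwegian White Sheep (NWS, labelled Norwegian) in Norway, so that breed, flock and country cannot be told apart. Every ewe was in 1 of 3 states. At the synchronised follicular phase, labelled induced, ewes had received an intravaginal progestagen sponge and then equine chorionic gonadotrophin, and there were 11 Suffolk, 10 Belclare, 8 Fur and 10 NWS ewes. The synchronised luteal phase, also labelled induced, had 10 Suffolk, 10 Belclare, 9 Fur and 8 NWS ewes. The protocol given by the study covers collection at the follicular phase, so the treatment of luteal ewes is known only from that label. The natural follicular phase was sampled in untreated cycles, in 8 Suffolk, 10 Belclare, 10 Fur and 10 NWS ewes. Of 115 libraries, 1 whose labels contradict each other was kept out of all comparisons.

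Cyclooxygenases carry out the committed step of prostaglandin synthesis. Phospholipases A2 free arachidonic acid from membrane phospholipids, a cyclooxygenase turns it into prostaglandin H2, and further enzymes make the individual prostaglandins, which leave and enter cells through carriers and act on receptors at the cell surface. Cyclooxygenase 1 is regarded as the constitutive form and its sister enzyme PTGS2 as the inducible one, while lipoxygenases such as ALOX12 use the same arachidonic acid for other products. In the ruminant cervix, prostaglandins take part in softening of the connective tissue and in smooth muscle tone, and their synthesis is tied to oestradiol, progesterone and oxytocin. PTGS2 and the prostaglandin receptors were not analysed here, because gene names came only from the study's own tables.

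Those tables name 1352 of the identifiers, and most of those names come from a list of genes that were higher in Suffolk than in Fur at the synchronised follicular phase. PTGS1 and most other genes named here are therefore enriched for that direction in that contrast. A few names come from short lists of the genes with the strongest differences between Suffolk and each other breed, in both directions. A different gene that the study's tables call COX-1 (ENSOARG00000000016) is listed there as mitochondrially encoded cytochrome c oxidase I, a subunit of the respiratory chain. It shares only the short name with cyclooxygenase 1 and was counted apart from it. The same entry also gives it a role in prostaglandin synthesis, and the study discusses it as the cyclooxygenase. The study also stained Suffolk, Fur and NWS cervix at the synchronised follicular phase with an antibody to cyclooxygenase 1. It describes the trend to higher levels in Suffolk as evident in that staining too. Only RNA was analysed here.

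Total counts per library lay between 12238996 and 31261671, and PTGS1 had between 112 and 3456 reads in each ewe, so that it was measured well above the counting floor in every library. Within groups, the PTGS1 level was not tied to depth (Spearman's rho of -0.10 with the total count over all ewes used). All 4 markers of Müllerian duct epithelium (PAX8, PAX2, WFDC2 and MUC16) and all 11 epithelial markers were detected in each group, as a cervical sample should show. A few libraries stood apart on genes other than PTGS1. On the 100 genes that differed most between the phases, scaled so that the synchronised follicular mean is 0 and the luteal mean is 1, the library labelled Fur synchronised follicular replicate 3 sat at 1.01, inside the luteal range of 0.46 to 1.33, while the other follicular libraries reached at most 0.67. The ranges overlapped at that end, since NWS luteal replicates 1 and 6 both lay at 0.46, and 6 further follicular libraries lay between 0.46 and 0.67. Mitochondrial COX-1 was at 25.8 to 49.2 CPM in all 27 Fur ewes and at 816 CPM or more in other ewes, except for 2 libraries labelled NWS natural follicular, replicates 4 and 10, which held 38.2 and 32.7 CPM. Smooth muscle genes were also uneven, and their values are given beside the results below.

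PTGS1 was highest in the luteal cervix. The 4 luteal groups took the first 4 places of the 12 group means, ahead of every follicular group, and the luteal ewes together had 59.6 ± 35.2 CPM (SD, n = 37), against 28.0 ± 13.2 CPM (SD, n = 39) at the synchronised follicular phase and 27.6 ± 12.7 CPM (SD, n = 38) at the natural follicular phase. The groups are shown ewe by ewe in the plot of PTGS1 by breed and state.

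**Figure D1:**
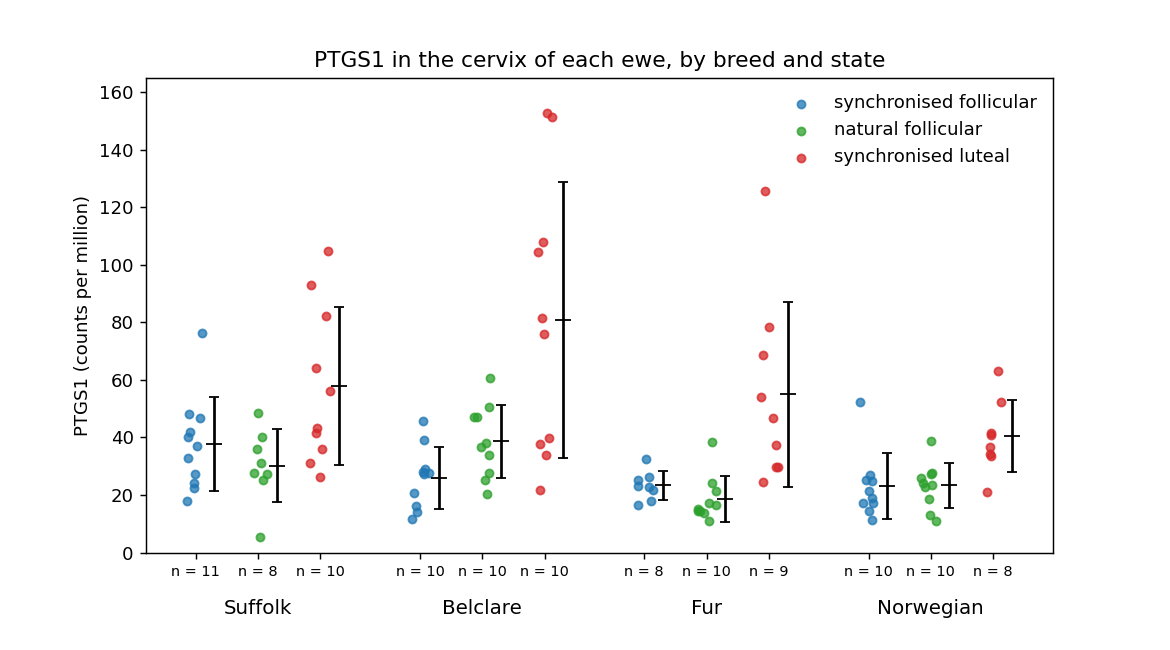
PTGS1 in CPM (vertical axis) in each ewe (points), in 3 states within each of 4 breeds; black bars give the mean ± SD beside each group and n the number of ewes. Luteal ewes (red) reach 152.8 CPM in Belclare, and every luteal group overlaps the follicular groups of its breed.

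In Belclare luteal ewes, the lowest value was 21.8, the median 78.8 and the highest 152.8 CPM (mean 80.8 ± 47.9, SD, n = 10). The Suffolk luteal ewes lay from 26.3 through a median of 49.7 to 104.9 CPM (mean 57.8 ± 27.4, SD, n = 10). Fur luteal ewes ran from 24.6 to 125.8 CPM with a median of 46.8 (mean 55.0 ± 32.3, SD, n = 9). These 3 groups each held ewes at the follicular level beside ewes several times higher. NWS luteal ewes were narrower, from 21.2 to 63.0 CPM with a median of 38.9 (mean 40.5 ± 12.6, SD, n = 8).

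At the synchronised follicular phase, Suffolk ewes lay between 17.9 and 76.5 CPM with a median of 37.0 (mean 37.8 ± 16.3, SD, n = 11). Belclare ewes lay between 11.7 and 45.7 CPM with a median of 27.5 (mean 25.9 ± 10.8, SD, n = 10). Both breeds overlapped over most of their range. Fur ewes were the most even group of the series, at 16.7 to 32.5 CPM with a median of 23.0 (mean 23.3 ± 4.97, SD, n = 8). NWS ewes had 11.2 to 52.4 CPM with a median of 20.2 (mean 23.0 ± 11.5, SD, n = 10), and a single ewe made up the top of that range.

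In the natural cycle, the order of the breeds was different. Belclare ewes had the highest level, at 20.2 to 60.7 CPM with a median of 37.4 (mean 38.7 ± 12.7, SD, n = 10). Suffolk ewes spread from 5.29 to 48.7 CPM with a median of 29.4 (mean 30.2 ± 12.7, SD, n = 8), and the ewe at 5.29 CPM was the lowest of the whole series. NWS ewes had 11.1 to 38.9 CPM with a median of 23.9 (mean 23.3 ± 7.89, SD, n = 10). Fur ewes had the lowest group mean of all, at 11.03 to 38.3 CPM with a median of 15.7 (mean 18.6 ± 7.88, SD, n = 10). All 4 breeds overlapped.

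Ranked by mean, the 12 groups ran from Belclare luteal to Fur natural follicular. In exact two-sided permutation tests of log2 CPM between the 11 neighbouring pairs, the smallest p was 0.293, between Suffolk synchronised and Suffolk natural follicular. All adjusted p over the 11 pairs were 0.812. The ranking itself put groups with close means side by side, so these tests cannot show whether the levels form a gradual series. The 12 groups accounted for 47.0% of the variance of PTGS1 in log2 CPM, against a median of 35.3% over all 14811 genes. Its spread between ewes of 1 group was also wide, with an SD of 0.66 in log2 CPM against a median of 0.36, so that 79.9% of the genes varied no more than PTGS1 within groups.

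The comparison of the phases asks how the cervix changes over the synchronised cycle. PTGS1 rose from the follicular to the luteal phase in Belclare, Fur and NWS ewes, and the Suffolk difference had the same sign without passing the threshold. Belclare had the largest estimate, at 3.09-fold (log2 fold change 1.63 ± 0.34, SE; adjusted p = 0.000823 in edgeR's quasi-likelihood test with Benjamini-Hochberg adjustment over all genes). In that breed 9 of 10 luteal ewes were above the follicular median and 6 were above every follicular ewe. Fur ewes showed a 2.38-fold rise (log2 fold change 1.25 ± 0.29, SE, edgeR adjusted p = 0.00198), with all 9 luteal ewes above the follicular median. Without the Fur follicular library that resembled the luteal phase, the rise was of the same size (log2 fold change 1.25 ± 0.31, SE, edgeR adjusted p = 0.00329).

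NWS ewes had a 1.78-fold rise (log2 fold change 0.83 ± 0.25, SE, edgeR adjusted p = 0.0139), and all 8 luteal ewes were above the follicular median while only 1 was above every follicular ewe. Without NWS luteal replicates 1 and 6 (21.2 and 33.7 CPM), the rise was 0.96 ± 0.26 (log2, SE, edgeR adjusted p = 0.00587). In Suffolk, the fold was 1.55 (log2 fold change 0.63 ± 0.26, SE, 95% interval 0.12 to 1.15, edgeR adjusted p = 0.0636), with 7 of 10 luteal ewes above the follicular median. The follicular level of Suffolk was the highest of the 4 breeds at this state, and its luteal level was the second highest. DESeq2's Wald test placed the Suffolk difference past the threshold (adjusted p = 0.0411). The exact permutation test of log2 CPM did not (p = 0.0522, adjusted p = 0.138 over the 20 pair comparisons). Without the highest Suffolk follicular ewe, replicate 3 at 76.5 CPM, the difference was 0.78 ± 0.25 (log2, SE, edgeR adjusted p = 0.0208). That ewe was picked after seeing the data. Leaving out the highest ewe of the lower group favours a wider difference, so nothing is read from that refit.

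Changes between the phases were common in this tissue. Genes called higher in the luteal phase made up 20.3% of the genes tested in Belclare, 22.3% in Fur, 21.3% in NWS and 17.9% in Suffolk. The filter used synchronised follicular ewes only. Genes expressed mainly in the luteal phase may therefore be missing from these and all later shares called higher in that phase. With the 4 breeds in 1 additive fit, PTGS1 was 2.10-fold higher in the luteal phase (log2 fold change 1.07 ± 0.16, SE, 37 against 39 ewes, edgeR adjusted p = 1.003e-08), where 34.6% of all genes were called higher and 35.2% lower. PTGS1 ranked 3026 of 14811 genes by p in that fit. The size of the rise was not shown to differ between breeds: the breed by phase interaction had an adjusted p of 0.347 for PTGS1 in edgeR's test, in a comparison where 0.898% of genes were called. The Belclare rise exceeded the Suffolk one by 1.004 ± 0.41 in log2 (SE, edgeR adjusted p = 0.309, unadjusted p = 0.0161).

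**Figure D2:**
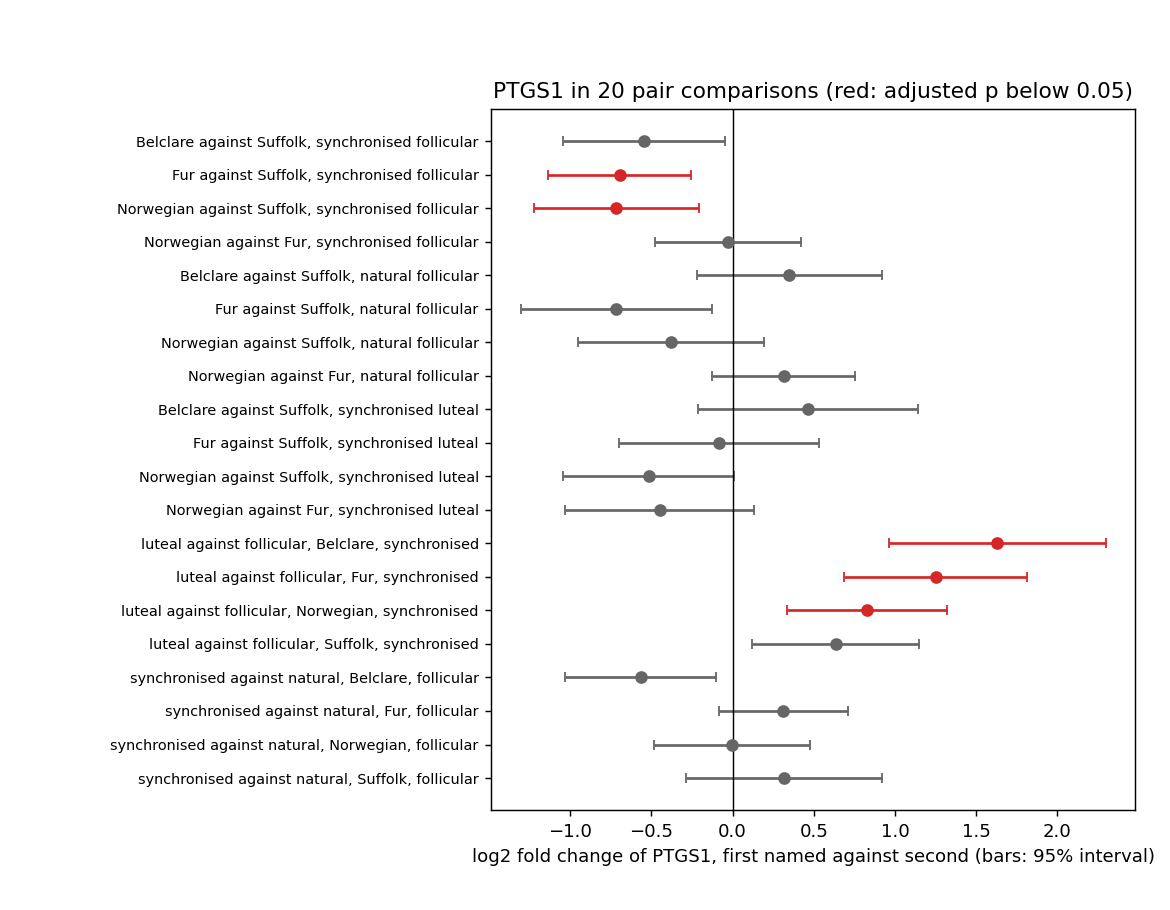
Log2 fold change of PTGS1 (horizontal axis) in 20 pair comparisons, each fitted on its own pair of groups; points are edgeR estimates, bars their 95% intervals, and red marks an adjusted p below 0.05. The 4 luteal comparisons lie to the right of 0, at 0.63 to 1.63, and the red points to the left are Fur and NWS against Suffolk at the synchronised follicular phase.

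Breeds were compared within each state to ask whether cervical expression follows breed. At the synchronised follicular phase PTGS1 differed among the 4 breeds (edgeR F test, adjusted p = 0.0341, with 45.5% of all genes called). Fur and NWS were both below Suffolk, with 8 of 8 Fur ewes and 9 of 10 NWS ewes under the Suffolk median (log2 fold changes -0.69 ± 0.22 and -0.72 ± 0.26, SE, edgeR adjusted p = 0.0235 and 0.0308). In those comparisons 31.6% and 41.7% of all genes were called, and the 3 breed comparisons share the same Suffolk ewes. The highest Suffolk ewe (76.5 CPM, the next at 48.2) decided part of this: without it the F test over breeds no longer passed (edgeR adjusted p = 0.158), NWS against Suffolk was -0.56 ± 0.24 (SE, edgeR adjusted p = 0.0658), and Fur against Suffolk was -0.54 ± 0.19 (SE, edgeR adjusted p = 0.0346). The Fur call was lost when all 12 groups entered 1 fit (edgeR adjusted p = 0.0708). Exact permutation tests of log2 CPM were adjusted over the 20 pair comparisons. In them, neither Fur nor NWS passed against Suffolk (exact test, adjusted p = 0.067 and 0.0637). Gene names come mostly from genes higher in Suffolk than in Fur at this state. The choice of PTGS1 therefore favoured that direction, here and in the F test. Fur and NWS could not be told from each other, with a log2 difference of -0.03 (95% interval -0.48 to 0.42, edgeR adjusted p = 0.989; 0.00675% of genes called), and of -0.25 ± 0.17 (SE, edgeR adjusted p = 0.739) without the NWS ewe at 52.4 CPM.

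Belclare ewes were 0.55 ± 0.25 (SE) below Suffolk in log2, with 8 of 10 ewes under the Suffolk median, but PTGS1 did not pass (edgeR adjusted p = 0.75, unadjusted p = 0.0432). Of all genes, 0.00675% were called between these breeds, that is 1 gene, with 954 at an unadjusted p under 0.05 and 53 called by DESeq2. Without the Suffolk ewe at 76.5 CPM the difference was -0.39 ± 0.23 (SE). The 95% interval of the difference, -1.04 to -0.05, covered the Fur and NWS estimates.

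In the natural follicular phase the breeds also differed (edgeR F test, adjusted p = 0.0088, with 32.1% of all genes called), but with Belclare at the top. Fur was 0.71 ± 0.30 (SE) below Suffolk in log2 (edgeR adjusted p = 0.0967; 20.2% of genes called), with 9 of 10 Fur ewes under the Suffolk median. That result turned on 2 ewes. Without the Suffolk ewe at 5.29 CPM it became -0.88 ± 0.22 (SE, edgeR adjusted p = 0.0118), and without the highest Fur ewe -0.88 ± 0.28 (SE, edgeR adjusted p = 0.0422). Both ewes were picked after seeing the data, and leaving out either one favours a wider difference. The Suffolk ewe also had the lowest mucin sum of its group, 141 CPM against a group median of 1046 CPM, and a correlation of 0.900 with the mean of its own group where the median ewe of that group had 0.953. The part of these differences in its PTGS1 level was not tested.

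NWS was 0.38 ± 0.29 (SE) below Suffolk in log2 in the natural cycle (edgeR adjusted p = 0.509; 1.04% of genes called), and 0.54 ± 0.21 (SE) below without the same Suffolk ewe (edgeR adjusted p = 0.175). Belclare was 0.35 ± 0.29 (SE) above Suffolk (95% interval -0.22 to 0.92, edgeR adjusted p = 0.697), and 0.19 ± 0.20 (SE) above it without the same ewe. Here 0% of genes were called, with 1443 genes at an unadjusted p under 0.05 and 23 called by DESeq2. NWS lay 0.31 ± 0.22 (SE) above Fur (edgeR adjusted p = 0.56; 0.0405% of genes called), and 0.27 ± 0.25 (SE) above it without the 2 NWS libraries that had Fur-like mitochondrial COX-1 (edgeR adjusted p = 0.633). Without the highest Fur ewe, NWS lay 0.50 ± 0.20 (SE) above Fur (edgeR adjusted p = 0.507).

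In the luteal phase the breeds were not separated for PTGS1 (edgeR F test, adjusted p = 0.0965, with 44.7% of all genes called). Belclare was 0.46 ± 0.34 (SE) above Suffolk (95% interval -0.21 to 1.14, edgeR adjusted p = 0.415; 3.15% of genes called). Fur lay 0.08 below Suffolk (95% interval -0.70 to 0.53, edgeR adjusted p = 0.864; 30.1% of genes called). NWS was 0.52 ± 0.27 (SE) below Suffolk (95% interval -1.04 to 0.01, edgeR adjusted p = 0.244; 8.93% of genes called), and 0.45 ± 0.30 (SE) below Fur (edgeR adjusted p = 0.579; 0.054% of genes called). Differences of up to about 1 log2 unit between Belclare and Suffolk lie inside the interval.

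The remaining comparison asks whether synchronisation changes the follicular cervix, by setting synchronised against natural follicular ewes. Over the 4 breeds together no difference in PTGS1 was detected, with a log2 fold change of 0.00 ± 0.14 (SE, 95% interval -0.28 to 0.27, 39 against 38 ewes, edgeR adjusted p = 0.999). No gene was called in that additive fit (0%; 2169 genes at an unadjusted p under 0.05; 34 called by DESeq2). By breed the signs were mixed. Belclare ewes were 0.56 ± 0.24 (SE) lower in log2 in the synchronised cycle, with 8 of 10 ewes under the natural median (edgeR adjusted p = 0.999997, unadjusted p = 0.0271). There, too, 0% of genes were called, with 291 at an unadjusted p under 0.05 and 0 by DESeq2, and PTGS1 ranked 125 by p.

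Fur ewes were 0.31 ± 0.20 (SE) higher in the synchronised cycle (edgeR adjusted p = 0.30; 18.1% of genes called), and all 8 were above the natural median. Without the highest natural Fur ewe the difference was 0.50 ± 0.15 (SE, edgeR adjusted p = 0.0376). Leaving out the highest ewe of the lower group favours a wider difference. The NWS estimate lay at 0 (log2 fold change 0.00 ± 0.24, SE, 95% interval -0.48 to 0.48; 0.0135% of genes called), and at -0.24 ± 0.21 (SE, edgeR adjusted p = 0.671) without the synchronised ewe at 52.4 CPM. Suffolk ewes were 0.32 ± 0.31 (SE) higher in the synchronised cycle, and 0.15 ± 0.24 (SE) higher without the ewe at 5.29 CPM (edgeR adjusted p = 0.782 and 0.884; 0% of genes called, 1267 at an unadjusted p under 0.05 and 8 by DESeq2). The breed by cycle interaction did not pass for PTGS1 (edgeR adjusted p = 0.311, unadjusted p = 0.0578; 2.44% of genes called). Its term for Belclare against Suffolk was -0.89 ± 0.37 in log2 (SE, edgeR adjusted p = 0.999).

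The genes before PTGS1 in the pathway did not move as a block between the phases. Of the 4 phospholipase A2 genes named, 2 rose and 2 fell in the luteal phase of the additive fit (median log2 fold change -0.68, against 0.00 over all genes), where 69.8% of all genes were called in either direction. PLA2G4F, a cytosolic enzyme, fell by 3.06 on the log2 scale (SE 0.28, edgeR adjusted p = 1.22e-15). Its median was 153 CPM in Belclare synchronised follicular ewes and 5.74 CPM in Belclare luteal ewes, with the highest luteal ewe (16.4 CPM) just above the lowest follicular ewe (14.98 CPM). PLA2G10, a secreted enzyme, fell by 1.88 (SE 0.24, edgeR adjusted p = 2.21e-10), and it also fell in each of the 4 breeds fitted alone, where 22.8% of all genes were called lower in Belclare, 23.6% in Fur, 20.4% in NWS and 17.6% in Suffolk. PLA2G6, the calcium-independent enzyme, rose by 0.52 ± 0.07 (SE, edgeR adjusted p = 1.30e-10), and PLA2G2C, of the secreted family, by 0.79 ± 0.20 (SE, edgeR adjusted p = 0.000386).

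Beside PTGS1, the other arachidonate oxygenase of the list moved the opposite way. ALOX12, a 12-lipoxygenase, fell by 0.99 on the log2 scale over the 4 breeds (SE 0.21, edgeR adjusted p = 3.43e-05). In Fur ewes its level was 48.6 to 114.5 CPM in the follicular phase with a median of 72.7, and 6.40 to 44.8 CPM in the luteal phase with a median of 13.6. Those Fur groups did not overlap, in a comparison where 23.6% of all genes were called lower. The share of genes without overlap was not counted. Natural follicular Fur ewes had 13.6 to 110.6 CPM of ALOX12, which overlapped the luteal ewes. ALOX12 fell in NWS as well (by 1.59, SE 0.36, edgeR adjusted p = 0.0025), and it did not pass in Belclare (log2 fold change 0.02 ± 0.40, SE, edgeR adjusted p = 0.975) or in Suffolk (-0.66 ± 0.33, SE, edgeR adjusted p = 0.129).

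Downstream, the 4 measured genes of prostaglandin and leukotriene conversion and transport moved little by comparison. CBR1, a carbonyl reductase that can convert prostaglandin E2, fell by 0.25 (SE 0.11, edgeR adjusted p = 0.0275), and the other 3 did not pass. SLCO2A1, the carrier that takes prostaglandins up into cells, had a log2 fold change of -0.22 ± 0.14 (SE, edgeR adjusted p = 0.169). DPEP1, a dipeptidase of leukotriene metabolism, was at -0.02 ± 0.14 and MGST1, a microsomal glutathione transferase, at 0.01 ± 0.13 (SE, edgeR adjusted p = 0.906 and 0.929). The fifth gene of that list, CYP4F3, a leukotriene hydroxylase, was below the filter, with group means from 0.14 to 1.11 CPM.

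Among 9 genes of steroid and oxytocin signalling, 2 rose and 6 fell in the luteal phase (median log2 fold change -0.32), where 34.6% of all genes were called higher and 35.2% lower. GREB1, an oestrogen-induced gene, fell by 3.39 (SE 0.24, edgeR adjusted p = 2.81e-20) and HSD11B1, which regenerates active glucocorticoid, by 2.89 (SE 0.21, edgeR adjusted p = 5.66e-20). OXTR, the oxytocin receptor, fell by 2.88 (SE 0.56, edgeR adjusted p = 5.27e-06). Its Suffolk luteal ewes had a median of 0.97 CPM and a highest value of 226 CPM, so that 1 ewe set their mean. ESR2, an oestrogen receptor, rose by 1.19 ± 0.30 (SE, edgeR adjusted p = 0.000292), and PAQR5, a membrane progestin receptor, by 0.42 ± 0.15 (SE, edgeR adjusted p = 0.00971).

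The smaller falls of that list were PGRMC1 by 0.28 (SE 0.05), PAQR6 by 0.52 (SE 0.11) and PAQR8 by 0.32 (SE 0.11), all past the threshold (edgeR adjusted p = 1.48e-06, 3.01e-05 and 0.00959). These are membrane proteins linked to progesterone binding. FKBP5, a chaperone induced by glucocorticoids and progesterone, did not pass (log2 fold change 0.03 ± 0.15, SE, edgeR adjusted p = 0.879). The phase plot of the pathway genes sets PTGS1 beside all of these.

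**Figure D3:**
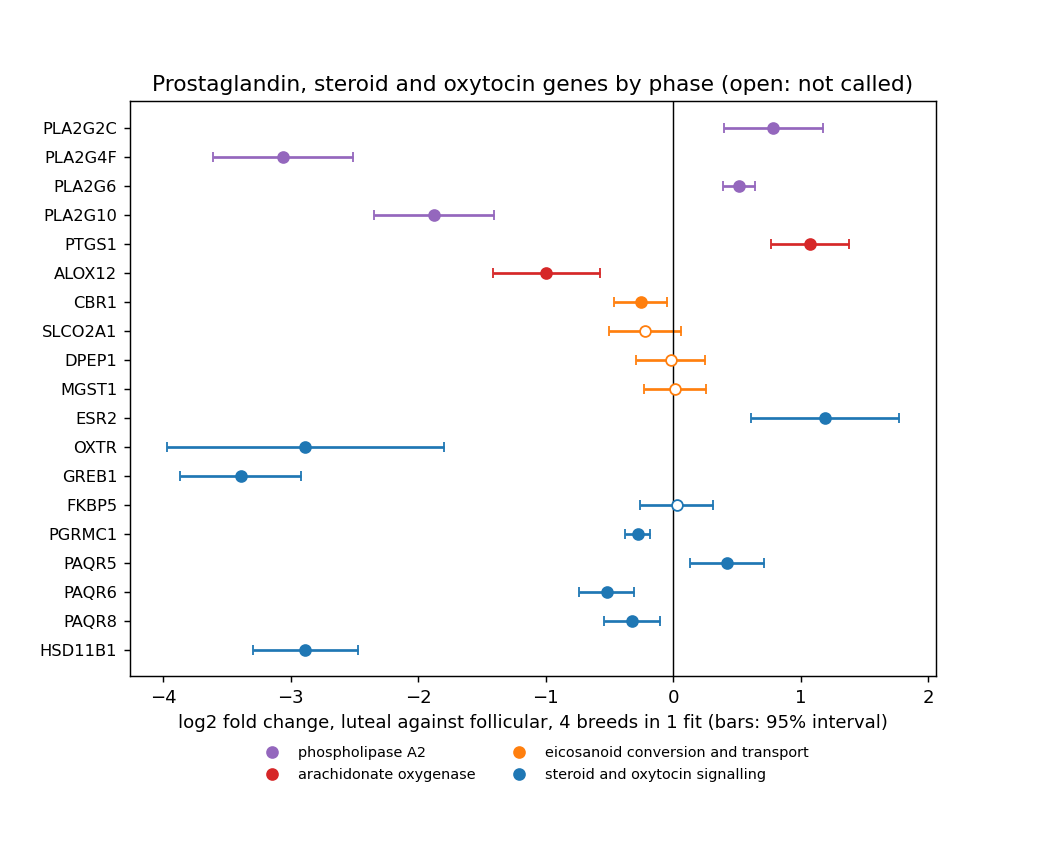
Log2 fold change from follicular to luteal phase (horizontal axis) of 19 pathway genes, 4 breeds in 1 additive edgeR fit, coloured by role; bars are 95% intervals and open points did not pass an adjusted p of 0.05. PTGS1 lies at 1.07, between ESR2 at 1.19 and PLA2G2C at 0.79, while GREB1, PLA2G4F, HSD11B1 and OXTR lie between -3.39 and -2.88.

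Between breeds at the synchronised follicular phase, most genes of the steroid and oxytocin list were lower in the Norwegian breeds, in the direction the names were drawn from. Of these 9 genes, 8 were lower in Fur and 7 in NWS than in Suffolk, against 14.6% and 20.1% of all genes. In Belclare 0 were lower, where 0.00675% of all genes were called in either direction. In the natural cycle, 4 were lower in Fur and 2 in NWS (12.7% and 0.5% of all genes), and in the luteal phase 3 in Fur and 0 in NWS (15.6% and 3.29% of all genes). At the synchronised follicular phase, 2 of the 4 phospholipase A2 genes were lower in Fur and 2 in NWS, with 0 called higher. Of the 4 measured conversion and transport genes, 3 were lower in Fur and 2 in NWS, with 0 called higher. Nothing about the lists is read from these counts. Mitochondrial COX-1, by contrast with PTGS1, fell by 6.11 on the log2 scale in synchronised follicular Fur ewes (SE 0.14, edgeR adjusted p = 5.45e-17) and by 5.92 in luteal ones (SE 0.13, edgeR adjusted p = 2.44e-17) against Suffolk. The PTGS1 difference between Fur and Suffolk was -0.69 and -0.08 in those states.

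A bulk sample cannot tell fewer cells of a type from less RNA per cell, and cell type markers moved with breed and with phase. In the synchronised follicular phase, all 5 smooth muscle genes (ACTG2, DES, ACTC1, POPDC2 and ASB2) were higher in Fur and in NWS than in Suffolk (17% and 21.6% of all genes were called higher). These 5 genes are among those the study's short lists name as lowest in Suffolk against Fur or NWS at this state, so their direction was fixed by the choice and nothing is read from the count. Their summed level was 1861 to 9054 CPM in Fur, 2686 to 9104 CPM in NWS and 27.8 to 708 CPM in Suffolk. Epithelial genes went the other way, with 10 of 11 lower in Fur and 11 of 11 in NWS, against 14.6% and 20.1% of all genes called lower. Most names come from genes higher in Suffolk than in Fur at this state. The choice therefore favoured this direction too, and nothing is read from the count. The epithelial sum was 612 to 1669 CPM in Fur, 884 to 1513 CPM in NWS and 1535 to 2324 CPM in Suffolk. None of these markers was at 0 in any group. Their part in the PTGS1 difference between breeds was not tested.

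Between the phases, epithelial genes were divided, with 2 of 11 higher and 4 lower in the luteal phase (median log2 fold change -0.08), against 34.6% of all genes higher and 35.2% lower. Of the fibroblast genes, 4 of 5 were lower (median -0.71), and 2 of 3 mucins were lower (median -0.96). The summed fibroblast level was 1326 to 3556 CPM in Belclare follicular ewes and 475 to 1266 CPM in Belclare luteal ewes, which do not overlap. In that comparison 22.8% of genes were called lower, and the share without overlap was not counted. Of the 10 leukocyte genes, 4 rose and 2 fell. The part of these shifts in the rise of PTGS1 was not tested.

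A few Irish follicular libraries had smooth muscle sums in the Norwegian range, and they were left out together as a further check: Belclare synchronised replicate 2 (13584 CPM), Belclare natural replicates 2 and 4 (6596 and 3436 CPM), and Suffolk natural replicates 6, 7 and 8 (3359, 6039 and 1752 CPM). Without them the luteal rise in Belclare was 1.56 ± 0.35 (log2, SE, edgeR adjusted p = 0.00151). Breeds differed for PTGS1 in the synchronised and the natural follicular phase (edgeR F tests, adjusted p = 0.039 and 0.0179). Leaving out only Irish libraries sets breed and smooth muscle level further apart, so this check cannot tell the 2 from each other.

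Ewe by ewe, after the mean of each of the 12 groups was taken off, PTGS1 was compared with 14810 other genes by Spearman's rho, as a description over the ewes of all groups. Among the named genes with the highest values were DOCK9 (rho 0.47), a guanine nucleotide exchange factor of Cdc42, FGF9 (0.44), a fibroblast growth factor, and RHOBTB3 (0.44). In luteal ewes alone (n = 37) these had a rho of 0.50, 0.55 and 0.63, in natural follicular ewes (n = 38) of 0.69, 0.54 and 0.38, and in synchronised follicular ewes (n = 39) of 0.22, 0.18 and 0.21. AQP9 (0.44), a channel for water and glycerol, SGMS1 (0.44), a sphingomyelin synthase, BCAR3 (0.42), an adaptor protein, and PLPP6 (0.42), a lipid phosphatase, followed. Named genes made up 19 of the 50 most similar genes, against 9.03% of all genes, and since most names come from genes higher in Suffolk, no theme is read from them. The most opposed named genes were ANGPTL4 (-0.42), a secreted inhibitor of lipoprotein lipase, SNAP25 (-0.41), a protein of vesicle fusion, RTN4R (-0.36), the Nogo receptor, and CHST7 (-0.36), a sulfotransferase. Of the 7 similar genes named above, 5 rose in the luteal phase in the additive fit, where 34.6% of all genes were called higher. The exceptions were FGF9 and PLPP6 (edgeR adjusted p = 0.0989 and 0.0963). The genes were picked for likeness to PTGS1, and nothing is read from the count.

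Over the 12 group means alone, the named genes closest to PTGS1 in order were FAM173A (rho 0.97), FAHD2A (0.96), KLHL14 (0.94) and DOCK9 (0.94). These rest on 12 points, and the first 2 had little likeness to PTGS1 within groups (rho 0.12 and 0.15), whereas DOCK9 stood high on both measures. Lists were compared with PTGS1 in the same way, as summed CPM with the group means removed. Epithelial genes had a rho of 0.37, the prostaglandin and leukotriene conversion and transport genes 0.40, Müllerian markers 0.26 and mucins 0.21. Endothelial genes were at 0.00, leukocyte genes at 0.04, smooth muscle genes at -0.10 and fibroblast genes at -0.26, over ewes whose PTGS1 and list values come from the same library and so share its depth and composition. Within the conversion list MGST1 led (rho 0.38), and SLCO2A1 (0.24) and CBR1 (0.17) came next, while DPEP1 was at -0.07.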

How the data were processed

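RNA was sequenced from 115 cervical libraries, each taken as 1 ewe. According to the study's methods, the authors aligned stranded mRNA reads with STAR 2.6.1b to the sheep genome Oar_v3.1 and counted uniquely mapped pairs per gene with featureCounts (Subread 1.6.3), and they deposited raw counts per gene and library. The strand setting of the counting is not given in the sources used here, so genes that overlap PTGS1 on the other strand may share its reads. Counting kept unique pairs only, which lowers genes with near-identical copies.

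Here, libraries were grouped by the labels and scaled by TMM, and 14811 genes reaching 1 CPM in 10 or more of 39 ewes (synchronised follicular) were tested with edgeR 4.0.16 (R 4.3.3, quasi-likelihood test). Each pair of groups was fitted alone, with Benjamini-Hochberg adjustment over all genes and a threshold of 0.05. Standard errors were taken from the log2 fold change and F. Single values were also tested by exact two-sided permutation of log2 CPM (prior count 2). Alternatives were DESeq2 1.42.0, its size factors, no filter, a replicate block, 1 fit of all groups and leaving out each ewe. Scripts were tested on simulated data. PTGS1 and the gene lists were chosen with earlier results of these data known. Genes named for likeness to PTGS1 were the 8 highest and 4 lowest named genes by Spearman's rho within groups and the 4 highest over group means, of which 1 is not reported here. Each replicate was taken as a separate ewe, as the study describes for the 39 synchronised follicular ewes. On that reading, p-values measure the spread between ewes.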

Additional observations from a re-analysis of the deposited data

Results flagged for a closer look

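In 2 of the 11 groups of 4 to 10 ewes, the highest PTGS1 value stood far from the next one. Chance alone flags about 1 in 20 groups if values are normally distributed. The check was run on CPM without logs, so that rate may not hold here. In Fur natural follicular ewes, replicate 6 had 38.3 CPM, and its gap to the next ewe was 0.52 of the range of the group, over a critical value of 0.466. In NWS synchronised follicular ewes, replicate 4 had 52.4 CPM, with a gap of 0.618 of the range. Without the NWS ewe, PTGS1 in NWS was -0.94 ± 0.23 (log2, SE) against Suffolk at that state (edgeR adjusted p = 0.00255), and its luteal rise in NWS was 1.06 ± 0.20 (log2, SE; edgeR adjusted p = 0.000944). Both calls were kept, but leaving out the highest ewe of the lower group favours both differences. The Suffolk synchronised follicular group, with 11 ewes, was not checked in this way, and its highest ewe had 76.5 CPM with the next at 48.2 CPM. The lowest ewe of the series, Suffolk natural follicular replicate 4 at 5.29 CPM, did not pass the same criterion (gap 0.458, critical value 0.526).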

How the results depend on the processing

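Of 122 values refitted under other settings than leaving out ewes, 118 kept their side of the threshold, and among these only the difference between the cycles over all breeds changed sign, from -0.00053 to 0.0048 with no filter. At the synchronised follicular phase, Fur against Suffolk became -0.63 (log2; edgeR adjusted p = 0.053) with the replicate block and -0.69 (edgeR adjusted p = 0.0708) with all 12 groups in 1 fit, and NWS against Suffolk became -0.77 (edgeR adjusted p = 0.0505) with the block. The luteal difference in Suffolk was 0.64 by DESeq2 (adjusted p = 0.0411). The block changed no other call, and since ewes with the same number did not deviate together (mean correlation -0.0087 over 590 pairs, 161 of them over 0.1), the numbers do not pair them. The cause of these shifts was not tested. Exact permutation tests of all ewes were adjusted over the 20 pair comparisons. Only the luteal rises in Belclare, Fur and NWS passed (exact test, adjusted p = 0.0177, 0.0177 and 0.0332).

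With each ewe left out in turn (exact permutation tests, log2 CPM), Belclare against Suffolk at the synchronised follicular phase ranged from -0.65 to -0.43 and passed an unadjusted 0.05 without any of 5 ewes. The Suffolk luteal difference ranged from 0.47 to 0.69 and passed without any of 6 ewes. In the natural cycle, Fur against Suffolk ranged from -0.91 to -0.45 and NWS against Suffolk from -0.58 to -0.12, and both passed only without Suffolk replicate 4. NWS against Fur ranged from 0.24 to 0.45, and passed without Fur replicate 6. Synchronised against natural ranged from -0.73 to -0.51 in Belclare, where it no longer passed without synchronised replicate 3 or natural replicate 8, and from 0.31 to 0.51 in Fur, where it passed without natural replicate 6. In edgeR, chosen after seeing the data, Fur against Suffolk in the natural cycle was -0.88 without Suffolk replicate 4 and -0.88 without Fur replicate 6, and Fur synchronised against natural was 0.50 without the latter. Without Suffolk synchronised follicular replicate 3, NWS against Suffolk at that state was -0.56, the adjusted p of the F test over breeds was 0.158, and the Suffolk luteal difference was 0.78, while without NWS replicate 4 the former 2 were -0.94 and 0.00432. Fur against Suffolk in the luteal phase and NWS synchronised against natural, neither of them called, changed sign when single ewes were left out (-0.29 to 0.0025 and -0.21 to 0.039). PTGS1 had at least 112 reads in each library.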

Other observations

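The library that was kept out of all comparisons, titled as a natural follicular Suffolk ewe but described as synchronised luteal, had 467 PTGS1 reads of 15387419, or 26.7 CPM. That value lies inside the range of both Suffolk groups that its labels name. It was just above the lowest Suffolk luteal ewe (26.3 CPM, group median 49.7) and near the Suffolk natural follicular median (29.4 CPM).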
